A study of Homo sapiens with 6 samples.

Results

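Caspases are proteases that are made as inactive precursors and cut other proteins during programmed cell death. Initiator caspases are switched on by being brought together on a platform: CASP8 and CASP10 at death receptors, CASP9 on the apoptosome that APAF1 forms with cytochrome c, and CASP2 on the PIDDosome. CFLAR encodes c-FLIP, a relative of CASP8 without protease activity that competes for the same platform. CASP6 is an executioner caspase, and CASP4 is an inflammatory caspase that binds bacterial lipopolysaccharide. Several of these genes give isoforms by alternative splicing, and RBM10 is an RNA-binding splicing factor.

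The 8 genes CASP2, CASP4, CASP6, CASP8, CASP9, CASP10, CFLAR and APAF1 were taken by symbol, with every listed isoform of each. They are 8 of 26334 gene symbols and have 41 of 51398 isoforms. RNA-Seq was performed on untreated PC-9 cells, a human lung adenocarcinoma line with an activating EGFR mutation, carrying a scrambled shRNA (shScr) or 1 of 2 shRNAs against RBM10 (shRBM10#1, shRBM10#2), with 2 libraries per condition. The labels name the controls shScr, whereas the study's methods speak of parental PC-9 cells, and the labels were followed. A scrambled hairpin controls for the vector, not for off-target effects of either RBM10 hairpin. The labels do not say whether the libraries of a condition came from separate cultures, so p-values measure only the spread between these libraries.

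Libraries held 31953729 to 37557507 expected counts. RBM10 stood at 38.5 and 45.7 TPM (transcripts scaled to a fixed total per library) in shScr, 28.4 and 25.8 TPM in shRBM10#1, and 13.1 and 12.8 TPM in shRBM10#2, so the second hairpin left the least RBM10 mRNA. The mean fragment was 231 nt in shScr replicate 2 and 265 to 281 nt in the other libraries, and the part of this in the isoform values was not tested. All 5 epithelial markers were above 1 TPM in every library, with a summed level of 20190 to 25630 TPM. Of 4 leukocyte markers only CD68 was (PTPRC, CD3E and MS4A1 were at or near 0), of 4 fibroblast markers only COL1A1, at 1.99 to 2.88 TPM, and of 3 endothelial markers PECAM1 and CDH5. The summed leukocyte list was 99.7 to 117 TPM in shScr, 80.2 to 81.8 TPM in shRBM10#1 and 77.02 to 78.5 TPM in shRBM10#2. The summed endothelial list was 6.02 to 7.65, 10.3 to 12.7 and 7.30 to 7.52 TPM in the same order, and the fibroblast list 2.87 to 2.90, 2.33 to 2.81 and 2.01 to 2.27 TPM. The part of these differences in the results was not tested.

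The stretches of coding sequence printed here separate isoforms described below. They were read from GENCODE 29 transcripts on GRCh38, and the capitals mark the bases that one isoform has and another lacks, between flanking exon bases in lower case. In CASP8 it is a 45-nt exon at chr2:201272898-201272942 (plus strand), which lies between the death effector domains and the protease part. In APAF1 it is a 129-nt exon at chr12:98703371-98703499 (plus strand), which adds a WD40 repeat to the part that binds cytochrome c, and a 33-nt segment at chr12:98648783-98648815 (plus strand), between the CARD and the nucleotide-binding domain. In CASP9, on the minus strand, the long form joins exon 2 to exon 3 (chr1:15507873-15507907), whereas the short form joins exon 2 to exon 7 (chr1:15495273-15495452). The capitals there are the first bases of the exon joined.

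CASP8 45-nt exon: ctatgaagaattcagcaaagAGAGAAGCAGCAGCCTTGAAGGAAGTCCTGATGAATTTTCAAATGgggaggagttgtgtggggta

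APAF1 129-nt exon: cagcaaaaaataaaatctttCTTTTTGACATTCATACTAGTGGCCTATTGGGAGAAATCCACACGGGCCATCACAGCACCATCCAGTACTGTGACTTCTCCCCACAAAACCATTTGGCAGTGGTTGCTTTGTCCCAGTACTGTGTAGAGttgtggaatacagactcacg

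APAF1 33-nt segment: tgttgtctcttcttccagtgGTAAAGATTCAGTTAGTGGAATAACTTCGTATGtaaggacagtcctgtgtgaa

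CASP9 exon 2 to exon 3: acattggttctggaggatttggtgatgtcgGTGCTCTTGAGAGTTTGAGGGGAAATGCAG

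CASP9 exon 2 to exon 7: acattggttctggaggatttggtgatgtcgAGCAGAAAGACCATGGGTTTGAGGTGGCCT

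All 8 genes were above 1 TPM in every library. In shScr, CASP4 was highest at 30.8 ± 1.51 TPM (SD, n = 2), followed by CFLAR at 24.7 ± 0.545 TPM and CASP8 at 18.3 ± 1.16 TPM. CASP6 at 16.0 ± 2.30 TPM and CASP2 at 15.7 ± 1.80 TPM did not differ beyond their spread, and the lower CASP8 library lay below the higher CASP6 library. APAF1 (4.99 ± 0.665 TPM), CASP9 (3.21 ± 0.0495 TPM) and CASP10 (1.58 ± 0.283 TPM) were the lowest. The counts behind them ran from 124 to 204 for CASP10 and 146 to 206 for CASP9 up to 1748 to 2262 for CFLAR, so the first pair are the least precisely measured.

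**Figure D1:**
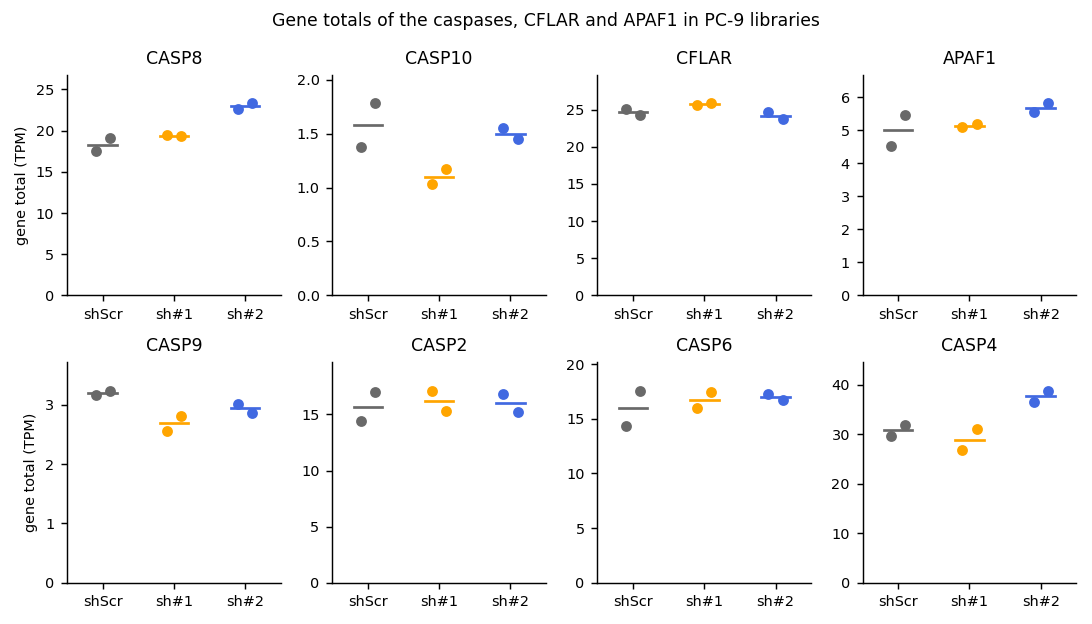
Gene totals in TPM (vertical axes, each from 0) of the 8 genes in shScr, shRBM10#1 (sh#1) and shRBM10#2 (sh#2), with 1 point per library and a bar at the mean of 2 libraries. Both shRBM10#2 libraries lie above the other 4 for CASP8, at 22.7 and 23.3 TPM, and for CASP4, at 36.5 and 38.9 TPM.

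The first question was whether the level of each gene differed between RBM10-KD and control cells. With shRBM10#2, 3 of the 8 genes rose against shScr: CASP8, CASP4 and APAF1. With shRBM10#1 none of the 8 passed, and none passed when the 4 RBM10-KD libraries were pooled. Of all 14217 genes tested, 25.9% were called with shRBM10#2, 14.0% with shRBM10#1 and 1.62% in the pooled comparison (edgeR quasi-likelihood test, Benjamini-Hochberg FDR below 0.05). Pooling missed even the targeted gene: the log2 FC of RBM10 was -0.99 (adjusted p = 0.146 by edgeR). Each hairpin alone gave a call for RBM10 (shRBM10#1 -0.54, adjusted p = 0.000228, shRBM10#2 -1.65, adjusted p = 5.1e-08). A gene short of the threshold when pooled therefore cannot be taken as unchanged. The median log2 FC of the 8 genes was 0.12 with shRBM10#2, 0.10 with shRBM10#1 and 0.14 pooled, beside 0.01 over all genes tested in each of the 3 comparisons. In bulk RNA, fewer cells with a transcript and less of it per cell cannot be told apart. At an unadjusted p under 0.05, none of the 8 passed with shRBM10#1 and CASP8 alone passed in the pooled comparison (log2 FC 0.27, SE 0.105, adjusted p = 0.239 by edgeR). DESeq2 called 0 of the 8 in both of these comparisons.

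CASP8, the initiator caspase of death receptor signaling (GRCh38 chr2:201233443-201287711, plus strand), had 31.5 and 28.3 CPM (counts scaled to a fixed library size) in shScr, 33.0 and 33.3 in shRBM10#1 and 37.3 and 40.0 in shRBM10#2. The 3 conditions did not overlap, a separation whose share over all genes was not counted. With shRBM10#2 it rose by a log2 FC of 0.37 (SE 0.0782, adjusted p = 0.00499 by edgeR), and without shRBM10#2 replicate 2 it did not pass (log2 FC 0.32, adjusted p = 0.0892). With shRBM10#1 the log2 FC was 0.15 (SE 0.0792, adjusted p = 0.234). The difference between the hairpins was 0.22 (SE 0.0775, adjusted p = 0.0534) and did not pass, although it did in 5 of 12 alternatives.

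CASP4 (chr11:104942866-104969436, minus strand) had 21.7 and 21.0 CPM in shScr, 19.4 and 23.1 CPM in shRBM10#1 and 26.1 and 28.0 CPM in shRBM10#2. The shRBM10#1 libraries lay on either side of shScr, and both shRBM10#2 libraries lay above all others. Its log2 FC with shRBM10#2 was 0.34 (SE 0.0939, adjusted p = 0.0195 by edgeR), against -0.01 (SE 0.0959, adjusted p = 0.982) with shRBM10#1. CASP4 was the one member of the 8 whose 2 hairpins differed, by 0.34 on the log2 scale (SE 0.0937, adjusted p = 0.0175), in a comparison in which 25.5% of all genes were called. The rise against shScr did not pass when any 1 of the 4 libraries compared was left out (adjusted p 0.0646 to 0.183). The difference between the hairpins was not called without shRBM10#1 replicate 1 (0.22, adjusted p = 0.100), shRBM10#2 replicate 1 (0.40, adjusted p = 0.0653) or shRBM10#2 replicate 2 (0.30, adjusted p = 0.169).

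APAF1, the scaffold of the apoptosome (chr12:98645141-98735433, plus strand), had 20.1 and 20.7 CPM in shScr, 21.4 and 22.7 in shRBM10#1 and 24.5 and 25.0 in shRBM10#2, with no overlap between conditions (not counted over all genes here either). It rose with shRBM10#2 by a log2 FC of 0.28 (SE 0.0799, adjusted p = 0.0236 by edgeR). The log2 FC with shRBM10#1 was 0.12 (SE 0.0810, adjusted p = 0.378), and that between the hairpins was 0.16 (adjusted p = 0.156). Leaving out any 1 of the 4 libraries compared ended the call (adjusted p 0.0572 to 0.177), as did DESeq2 (adjusted p = 0.0554). On the opposite strand ANKS1B overlaps APAF1, and its highest count was 8.14.

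The other 5 genes passed in no comparison of totals. CFLAR had 57.1 and 54.2 CPM in shScr, 55.9 and 61.4 CPM in shRBM10#1 and 54.0 and 53.5 CPM in shRBM10#2, with a log2 FC of 0.08 (SE 0.0718) and -0.05 (SE 0.0718) against shScr. CASP2 had 39.8 and 40.8, 46.4 and 42.9, and 45.2 and 40.9 CPM in the same order of conditions, with log2 FC of 0.15 (SE 0.0769) and 0.10 (SE 0.0766). CASP6 had 13.9 and 15.2, 15.2 and 17.3, and 16.3 and 15.9 CPM, with log2 FC of 0.17 (SE 0.0992) and 0.15 (SE 0.0986). The 4 RBM10-KD libraries of CASP2 and of CASP6 ran from the level of the higher shScr library upward, and the shRBM10#2 libraries of CFLAR lay below both shScr libraries. CASP9 had 6.10 and 5.44, 4.67 and 5.54, and 5.55 and 5.27 CPM, with log2 FC of -0.17 (SE 0.148) and -0.09 (SE 0.146). CASP10 had 4.56 and 5.26, 3.96 and 4.45, and 5.49 and 4.99 CPM, with log2 FC of -0.22 (SE 0.155) and 0.09 (SE 0.151). The CASP10 and CASP9 libraries of the 3 conditions spanned 3.96 to 5.49 and 4.67 to 6.10 CPM.

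**Figure D2:**
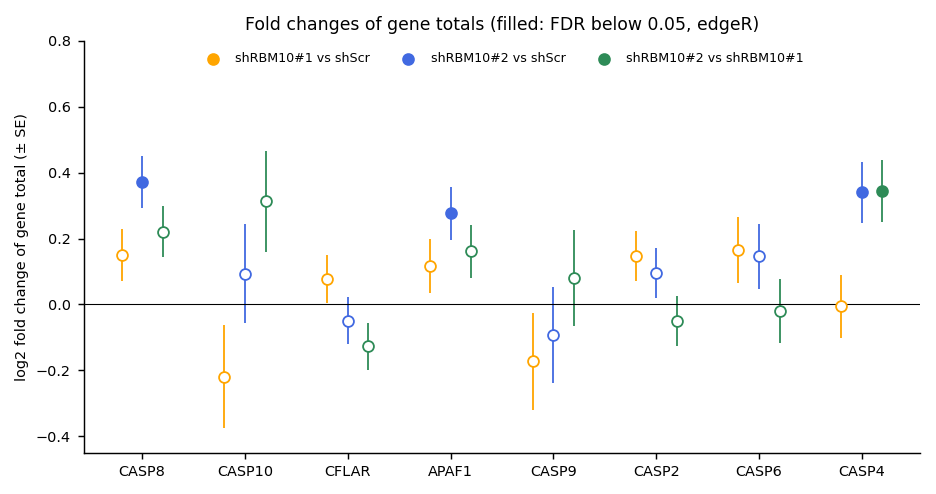
Log2 fold change of the gene total (vertical axis, points with SE bars from edgeR) of each gene for the 3 comparisons between conditions, 2 libraries each. Filled points passed an FDR of 0.05: CASP8, APAF1 and CASP4 for shRBM10#2 against shScr (0.37, 0.28 and 0.34) and CASP4 between the hairpins (0.34).

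Among further caspases, CASP5 and CASP12 were listed at 0 in every library, and CASP1 did not exceed 0.32 TPM. Of 12 adaptors and platform partners, 11 were tested. PYCARD, the inflammasome adaptor, rose with shRBM10#1 (log2 FC 0.45, SE 0.0887, adjusted p = 0.00455), and the other 10 did not pass. With shRBM10#2, CYCS (cytochrome c) rose (0.23, SE 0.0755, adjusted p = 0.0415), TRADD (-0.30, SE 0.0708, adjusted p = 0.00929) and RIPK1 (-0.24, SE 0.0805, adjusted p = 0.0408) fell, and 8 did not pass. Both TRADD and RIPK1 are adaptors of death receptors, but FADD, on the same list, did not pass with shRBM10#2 (-0.09, SE 0.0649, adjusted p = 0.364 by edgeR).

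Of the 10 caspase substrates, 0 passed with shRBM10#1, where DFFA, LMNA and GSDMD had an unadjusted p under 0.05, and 3 fell with shRBM10#2: the nuclear lamin LMNA (log2 FC -0.37, SE 0.0649, adjusted p = 0.00186 by edgeR), ACIN1 (-0.32, SE 0.0685, adjusted p = 0.00551), which acts in apoptotic chromatin condensation, and the kinase ROCK1 (-0.26, SE 0.0721, adjusted p = 0.0190). Both the 3 of 10 substrates and the 3 of 11 adaptors called with shRBM10#2 are near the 25.9% called over all genes. The median log2 FC with shRBM10#2 was -0.05 for the substrates and -0.04 for the adaptors. Between the hairpins, CYCS (0.37, adjusted p = 0.00432) and the caspase inhibitor XIAP (0.30, adjusted p = 0.0145) were higher with shRBM10#2, and TRADD was lower (-0.29, adjusted p = 0.00967). FADD and PYCARD were lower too, which makes 2 adaptors higher and 3 lower. Among the substrates DFFA, the inhibitor of the apoptotic DNase, was higher (0.26, adjusted p = 0.0244) and 4 were lower, among them ACIN1 (-0.33, adjusted p = 0.00493) and LMNA (-0.22, adjusted p = 0.0270). These 5 of 11 adaptors and 5 of 10 substrates stood beside 25.5% called over all genes. In the pooled comparison 0 of these substrates and adaptors passed the edgeR test, and PYCARD, AVEN and LMNA had an unadjusted p under 0.05.

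The genes whose log2 CPM, relative to the shScr mean, ran closest to each rising gene over the 6 libraries were LRRC42 and ADA for CASP8 (root mean square difference 0.0306 and 0.0316), GTF2B and TOMM7 for CASP4 (0.0298 and 0.0309), and JKAMP and CDKN2B-AS1 for APAF1 (0.0151 and 0.0183). The median over the 14216 other genes was 0.297, 0.281 and 0.251.

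The second question was whether the isoforms of each gene changed. Of the 41 isoforms, 18 had counts in every library, 21 were at 0 in at least 1 library, and 2 were at 0 in all. The test took 29 of them, and 1 was called: NM_033356 of CASP8 with shRBM10#2. Of the 26464 isoforms tested, 0.491% were called with shRBM10#2, 0.0227% with shRBM10#1 and 0.0% in the pooled comparison (edgeR, FDR below 0.05 and an absolute log2 FC above 1). In the pooled comparison 2875 isoforms, 3 of them of these genes, had an unadjusted p under 0.05, and DESeq2 called 271 isoforms, 1 of them of these genes. With shRBM10#1 edgeR called 0 of the 29, with 6 at an unadjusted p under 0.05, and DESeq2 called 1. Isoform usage, in which each isoform is set against the rest of its gene, could be tested in 7 of the 8 genes, since CASP6 had 1 isoform past the filter on low counts. Usage was called in CASP8 with shRBM10#2 (edgeR diffSpliceDGE, adjusted p = 0.0278), where 2.75% of 6405 genes were called. No member was called with shRBM10#1, pooled or between the hairpins, where 0.172%, 0.515% and 1.92% of genes were called. At an unadjusted p under 0.05 usage passed in CASP8, CASP10 and CFLAR with shRBM10#1, in CASP10 and CFLAR in the pooled comparison, in CASP10 with shRBM10#2, and in CASP8 between the hairpins (adjusted p = 0.0692). In limma's diffSplice none of them was called.

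CASP8 was listed with 7 isoforms. The most abundant, NM_001080125, made up 34.3% and 33.9% of the gene in shScr, 54.5% and 44.7% in shRBM10#1 and 41.1% and 34.2% in shRBM10#2. NM_033356 had 132 and 87.3 expected counts in shScr, 67.5 and 71.3 in shRBM10#1, and 0 in both shRBM10#2 libraries. That is 12.9% and 9.34% of the CASP8 counts in shScr (95% Wilson intervals 11.0 to 15.1% and 7.64 to 11.4%), and a count of 0 allows up to 0.216% and 0.196% in shRBM10#2. These limits cover counting error only. Reads shared by isoforms are divided in estimation, and an isoform can be at 0 in 1 library of a condition and well above it in the other, as NM_003879 of CFLAR was in shScr (0 and 251 counts), so no fold change is given against a group at 0. By edgeR NM_033356 was lower in shRBM10#2 than in shScr (adjusted p = 0.0377). The call was lost with any 1 library left out (adjusted p 0.0530 to 0.221), shRBM10#1 libraries included, as all 6 enter the estimate of spread.

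NM_033356 and NM_001080124 have the same coding segments in GENCODE 29, so they differ in their first exons and not in the protein. NM_001080124 had 202 and 157 counts in shScr, 212 and 234 in shRBM10#1, and 337 and 498 in shRBM10#2, the opposite order to NM_033356. With shRBM10#2 its log2 FC was 1.01 (SE 0.241, adjusted p = 0.0938 by edgeR), short of the test, though DESeq2 called it (adjusted p = 0.00187). Together the pair made up 34.5% and 25.9% of CASP8 in shScr, 27.4% and 24.5% in shRBM10#1, and 23.7% and 32.9% in shRBM10#2, with shScr and shRBM10#2 overlapping. When isoforms with the same coding segments were merged in every gene, CASP8 usage with shRBM10#2 was not called, with an adjusted p of 1 by edgeR in place of 0.0278. The CASP8 usage call held among isoforms with at least 5% of the gene (adjusted p = 0.000176 by edgeR) and without shScr replicate 1 (adjusted p = 0.0402). It was lost at 10 counts in every library, which removes NM_033356 (adjusted p = 1 by edgeR), in limma's diffSplice (adjusted p = 0.351), and without shScr replicate 2 (adjusted p = 0.0544) or any of the 4 RBM10-KD libraries (adjusted p 0.0714 to 0.401).

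Other CASP8 isoforms varied between libraries of a condition. NM_033355 made up 14.3% and 20.5% in shScr, 8.67% and 17.6% in shRBM10#1 and 20.4% and 15.7% in shRBM10#2. NR_111983, which is listed without a coding sequence, made up 8.51% and 9.84%, 2.83% and 3.82%, and 5.05% and 9.98% in the same order. NM_033358, the shortest, was at 0 in shScr replicate 1 and at 4.70% to 9.80% elsewhere. The 45-nt exon printed above was in 53.1% and 71.3% of the coding isoforms in shScr, 71.9% and 74.5% in shRBM10#1, and 75.0% and 60.7% in shRBM10#2. The 2 shScr libraries spanned most of that range.

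**Figure D3:**
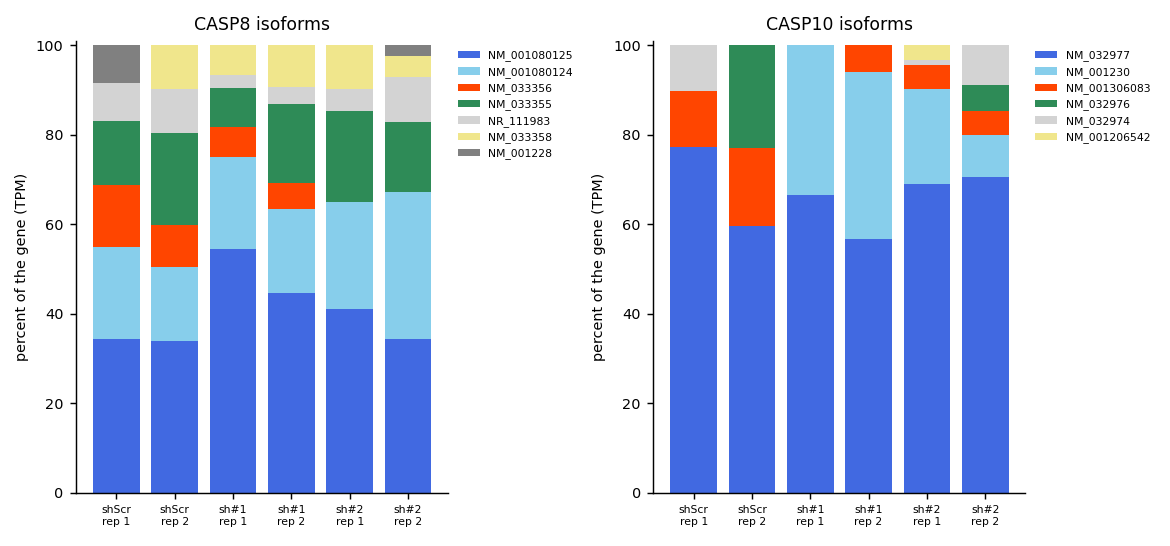
Percent of the gene (TPM, vertical axes from 0 to 100) held by each isoform of CASP8 and CASP10 in the 6 libraries, stacked by isoform (sh#1 and sh#2 are shRBM10#1 and shRBM10#2). NM_033356 of CASP8 is at 0 in both shRBM10#2 libraries and NM_001230 of CASP10 is at 0 in both shScr libraries.

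CASP10, the neighbor of CASP8 and a death receptor caspase (chr2:201182881-201229406, plus strand), was carried mainly by NM_032977, at 77.2% and 59.7% of the gene in shScr, 66.6% and 56.6% in shRBM10#1 and 69.0% and 70.6% in shRBM10#2. NM_001230 had 0 counts in both shScr libraries, 40.8 and 63.6 in shRBM10#1, and 46.0 and 19.2 in shRBM10#2. Both shScr libraries lay below all 4 RBM10-KD libraries. Another isoform, NM_032976, had 0 and 45.6 counts in the 2 shScr libraries, so an estimate of 0 does not bound the level of an isoform of this gene. By edgeR NM_001230 did not pass with shRBM10#1 (adjusted p = 0.0940), with shRBM10#2 (adjusted p = 0.0580) or pooled (adjusted p = 0.172). DESeq2 called NM_001230 in all 3 (adjusted p = 5.33e-05, 0.000227 and 0.000387). CASP10 usage did not pass either (adjusted p = 0.461, 0.358 and 0.362 in that order). The other isoforms rested on few counts: NM_032976 had, beside its 45.6 in shScr replicate 2, 12.4 in shRBM10#2 replicate 2 and 0 in the other 4 libraries, while NM_001306083 and NM_032974 did not exceed 7.23.

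CFLAR, which lies beside CASP10 (chr2:201116104-201176687, plus strand), was listed with 10 isoforms. NM_001127184, which encodes the short c-FLIP, was the most abundant per length, at 66.3% and 52.8% of the gene's TPM in shScr, 68.2% and 65.6% in shRBM10#1 and 65.2% and 63.1% in shRBM10#2. It is 1298 nt long, whereas NM_001127183, of the long c-FLIP, is 10651 nt long, so their order by counts was the reverse: 386 and 273 against 913 and 745 counts in shScr. NM_001127183 made up 15.4% and 14.8% of TPM in shScr, 10.3% and 10.7% in shRBM10#1 and 13.3% and 12.6% in shRBM10#2, so that both hairpins lay below shScr. Its log2 FC was -0.37 (SE 0.131, adjusted p = 0.298 by edgeR) with shRBM10#1 and -0.19 (SE 0.130, adjusted p = 0.471) with shRBM10#2.

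With NM_003879, which has the same 1440-nt coding sequence, the long form made up 15.4% and 19.8% in shScr, 10.3% and 10.6% in shRBM10#1, and 13.3% and 12.6% in shRBM10#2. For this pair alone neither hairpin overlapped shScr, a separation whose share over all genes was not counted. The pair leaves out isoforms without a GENCODE match, for which no coding sequence was read here. Among them NM_001202515, 9717 nt long, was at 0.1% and 0% of TPM in shScr, 5.49% and 6.22% in shRBM10#1, and 0% and 3.78% in shRBM10#2. NM_003879 itself had 251 counts in shScr replicate 2, the library of shorter fragments, and at most 0.04 elsewhere. NM_001308043, with a 750-nt coding sequence, made up 15.4% and 18.6%, 12.6% and 14.5%, and 13.4% and 14.0% of TPM in the same order. NM_001202515 had 5.25 and 0 counts in shScr, 286 and 399 in shRBM10#1, and 0 and 222 in shRBM10#2. It had the smallest usage p of the CFLAR isoforms with shRBM10#1, but CFLAR usage was not called (adjusted p = 0.312 by edgeR), nor was it with shRBM10#2 (adjusted p = 0.528) or pooled (adjusted p = 0.340).

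APAF1 was listed with 5 isoforms. NM_181861, which holds both inserted segments printed above, made up 49.3% and 52.1% of the gene in shScr, 47.8% and 55.6% in shRBM10#1 and 40.9% and 48.0% in shRBM10#2. NM_181868, which has the 33-nt segment and lacks the 129-nt exon, made up 29.9% and 17.1%, 17.0% and 16.2%, and 33.4% and 25.7%. NM_001160, with neither segment, was at 0 to 10.95% and at 0 in 2 libraries. Among the 4 longer isoforms the 129-nt exon was in 62.3% and 69.7% in shScr, 71.3% and 77.4% in shRBM10#1, and 48.0% and 62.3% in shRBM10#2. Both shRBM10#1 libraries lay above shScr, and the higher shRBM10#2 library was level with the lower shScr library. APAF1 usage passed in no comparison (adjusted p = 1 by edgeR diffSpliceDGE in each). The 33-nt segment was in 87.1% to 100% of the same isoforms. NM_181869, whose coding sequence of 1014 nt ends before the WD40 repeats, made up 20.7% and 25.1% of the gene in shScr, 29.7% and 28.2% in shRBM10#1 and 14.8% and 22.9% in shRBM10#2.

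**Figure D4:**
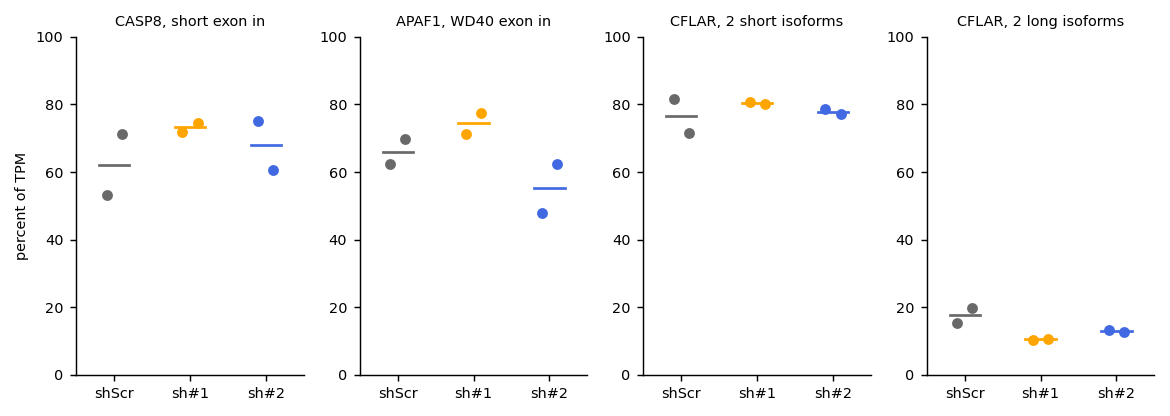
Percent of TPM (vertical axes, 0 to 100) of isoforms with the CASP8 45-nt exon, isoforms with the APAF1 129-nt exon, the CFLAR isoforms NM_001127184 and NM_001308043, and the CFLAR isoforms of the long form, with 1 point per library and a bar at the mean of 2. The long CFLAR form, counted as NM_001127183 and NM_003879 alone, is at 15.4 and 19.8% in shScr and at 10.3 to 13.3% in the RBM10-KD libraries.

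CASP9 (chr1:15490832-15526534, minus strand) was carried by the full-length NM_001229, at 96.0% and 93.6% of the gene in shScr, 72.3% and 97.2% in shRBM10#1 and 84.3% and 72.0% in shRBM10#2. The short form, caspase-9b, lacks exons 3 to 6, 450 nt in all, and with them part of the protease domain, and is known to inhibit the apoptosome. In GENCODE 29 the isoform of this structure is NM_001278054. It had 6.71 and 9.80 counts in shScr, 29.97 and 4.73 in shRBM10#1, and 27.8 and 30.7 in shRBM10#2. As a share of CASP9 counts this was 3.54% and 5.59% in shScr (95% Wilson intervals 1.72 to 7.12% and 3.06 to 9.98%). In shRBM10#1 it was 20.5% (14.8 to 27.8%) and 2.45% (1.05 to 5.61%), and in shRBM10#2 13.6% (9.57 to 18.9%) and 15.3% (11.0 to 21.0%). Of the 4 RBM10-KD libraries, 3 lay above both shScr libraries, and the 2 libraries of shRBM10#1 lay on opposite sides of them. The intervals cover counting error only.

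Of CASP9 TPM the short form was 5.29% ± 1.68 (SD, n = 2) in shScr and 14.9% ± 8.70 (SD, n = 4) in the RBM10-KD libraries. The difference was 9.62 points (exact two-sided permutation test, p = 0.400), and 4 against 2 libraries cannot give a p below 0.133. With shRBM10#2 alone the 2 libraries were at 15.6% and 17.8%, above shScr at 4.10% and 6.48%, but CASP9 usage did not pass (adjusted p = 1 by edgeR diffSpliceDGE). NM_032996, a second isoform shorter than the full-length form, had 0 counts in 5 libraries, which by counting error alone allows at most 1.46% to 2.06% of CASP9 counts per library, and 12.5 counts in shRBM10#2 replicate 2. The mean share of TPM was 0% in shScr and 1.57% ± 3.14 (SD, n = 4) in the RBM10-KD libraries (exact two-sided permutation test, p = 1). With 5 libraries at 0 and the remaining one an RBM10-KD library, the test gives this p whatever that library's value, so it decides nothing. The remaining isoforms, NR_102732 and NR_102733, had counts in 1 library each.

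**Figure D5:**
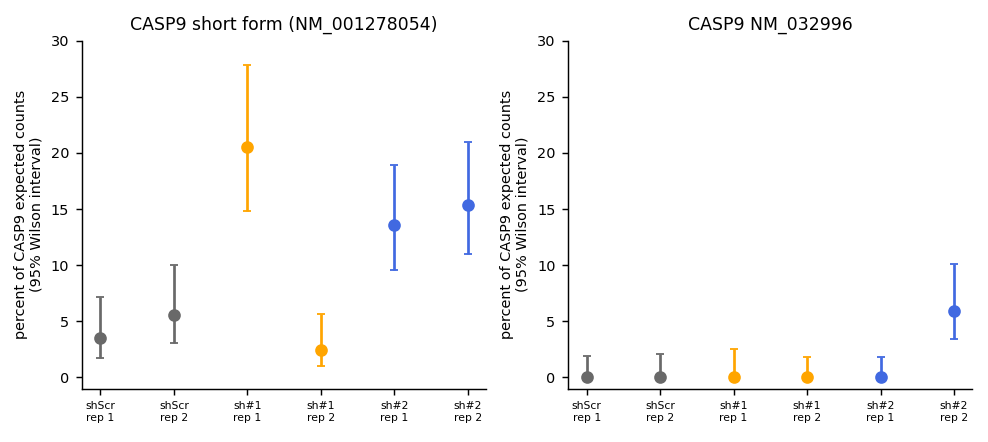
Percent of CASP9 expected counts (vertical axes, with 95% Wilson intervals) of the short form NM_001278054 and of NM_032996 in each of the 6 libraries (sh#1 and sh#2 are shRBM10#1 and shRBM10#2). The short form is at 2.45% to 20.5% in the RBM10-KD libraries and 3.54% and 5.59% in shScr.

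CASP2 (chr7:143288215-143307696, plus strand) and CASP4 held nearly 1 isoform each. NM_032982 made up 88.1% to 93.1% of CASP2 in every library and NM_001224, of the same annotated transcript, 3.06% to 7.93%. NM_001225 made up 98.2% to 100% of CASP4. CASP6 (chr4:109688622-109703583, minus strand) gave NM_001226 at 96.4% to 100%. Usage p-values were 0.795 or more for CASP2 and CASP4 in every comparison. Of the 41 isoforms, 16 stayed under a mean of 5% in each condition, and the highest of them in any library was 8.49%.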

How the data were processed

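RNA from 3 conditions of PC-9 cells, 2 libraries each, was analyzed. The authors quantified RefSeq isoforms with RSEM, and the submitters' processing notes name STAR 2.4, RSEM 1.2.29, edgeR and hg19, whereas the strand protocol is not given in the sources used here. Per library the authors deposited expected counts, in which reads shared by isoforms are divided, TPM, which divides by effective length, and the percent of the gene given by each isoform. Deposited FPKM values were not used, and deposited lengths in nt were taken as given. Each library's fragment length was taken as transcript length less effective length plus 1.

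Members, pathway lists and tests were chosen with earlier results of these data known. Expected counts were rounded and tested across all genes or isoforms with the quasi-likelihood test of edgeR 4.0.16 in R 4.3.3 (TMM scaling, filterByExpr, Benjamini-Hochberg adjustment), with 1 coefficient per condition, or 2 groups for the pooled comparison. Isoform usage was tested with diffSpliceDGE (Simes p). The SE is the absolute log2 FC divided by the square root of F. CPM are counts scaled by library total and TMM factor, and log2 FC are those of edgeR with its prior count. Alternatives used DESeq2 1.42.0 and limma 3.58.1. Python 3.11.15 computed Wilson intervals (95%) and exact permutation tests. A count of 0 was taken to allow 3 counts, which does not cover how reads were divided among isoforms. The edgeR procedures were run on simulated counts with larger changes than those called here for gene totals. That run checks the code and does not bear on changes of this size or on isoforms near 0 counts.

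The text names all 8 members, isoforms with a mean of at least 5% of the gene in a condition or called, NM_032996, up to 3 further pathway genes per list and comparison by adjusted p, and the 2 genes most alike to each called member. Further isoforms were named after their values were seen: NM_001278054, NM_003879, NR_102732 and NR_102733, and so were CASP1, CASP5, CASP12, FADD, PYCARD, GSDMD and AVEN where a count covers them. NM_032996 had been taken for caspase-9b before its structure was looked up. The 36 of 41 member isoforms with a RefSeq match in GENCODE 29 gave coordinates on GRCh38, which were not converted from hg19, and 5 CFLAR isoforms had no match. Replicate numbers did not pair the libraries, and the check is given with the limits. Some pathway genes are not reported here.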

Additional observations from a re-analysis of the deposited data

Results flagged for a closer look

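CASP4 differed between the hairpins: its gene total was higher in shRBM10#2 than in shRBM10#1 by 0.34 on the log2 scale (adjusted p = 0.0175 by edgeR). In this comparison 25.5% of all genes were called. The 2 libraries of each hairpin did not overlap, a separation whose share over all genes was not counted. The fits with a library left out are given above, and the cause was not tested.

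NM_032996 of CASP9 stood at 6.27% of the gene's TPM in shRBM10#2 replicate 2 and at 0% in the other 3 RBM10-KD libraries, which is beyond Dixon's limit for 4 values. With 3 values tied at 0 any remaining value above 0 exceeds that limit, so it says nothing about the size of this one, which rests on 12.5 expected counts. In this way 10 values were examined, and chance marks about 1 group in 20.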

How the results depend on the processing

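For gene totals with shRBM10#2, 3 members were called under each alternative of scaling and filter, in the fit of the 2 conditions alone and with the replicate block, DESeq2 called 2, and with an absolute log2 FC above 1 as well 0 were. Leaving out 1 library gave 0 (shRBM10#2 replicate 2) to 3. Between the hairpins, 0 were called with the log2 FC criterion, 2 with no filter, with 10 counts in every library or in the fit of the 2 conditions, and 0 to 2 with a library left out. In each of its alternatives the log2 FC of the called members kept its direction. DESeq2 called 1 member isoform pooled, 1 with shRBM10#1 and 3 with shRBM10#2, against 0, 0 and 1 by edgeR; with shRBM10#2 these were NM_001230, NM_001080124 and NM_033356, and why the tools differ was not tested. With shRBM10#2, 0 member isoforms were called at 10 counts in every library, under the replicate block or with any library left out. Usage with shRBM10#2 gave 1 member (CASP8) with isoforms of at least 5% of the gene, 0 members called at an FDR below 0.01, at 10 counts in every library, under the replicate block, in limma and with isoforms of one coding sequence merged, which was chosen after the data were seen, and 0 to 1 with a library left out. Between the hairpins usage gave 1 with isoforms of at least 5% of the gene and 0 to 1 with a library left out.

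Replicate numbers did not pair the libraries: libraries of one number correlated at -0.0038 to -0.0193 in their deviations over 14217 genes. Over all features, the replicate block took the calls for gene totals from 230 to 52 pooled, those for isoforms with shRBM10#2 from 130 to 0 and those for usage with shRBM10#2 from 176 to 83. DESeq2 gave 718 genes pooled and 809 isoforms with shRBM10#2, and limma 571 genes for usage with shRBM10#2. The short CASP9 form, also chosen after the data were seen, differed by 8.46 points in counts, 10.4 against NM_001229 alone and 6.78 to 13.6 with a library left out (exact permutation p 0.200 to 0.800, 0.444 under the replicate block). Without shRBM10#2 replicate 2 the NM_032996 difference was 0. CASP9 and CASP10 rested on at most 206 counts per library, which limits their isoform shares.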
